A study of Mus musculus with 20 samples.

Results

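The alpha-macroglobulin family of mouse liver was followed here through its 4 members A2m, Pzp, Mug1 and Mug2, which were taken by gene symbol from the 37681 genes listed in each count table, and all 4 were among the 15578 genes tested. The study treated wild-type male C57/BL6 mice aged 12 weeks (C57/B6J in the study's methods) by intraperitoneal injection with either IL-1β at 20 µg/kg (ILB, n = 5 mice, ILB_9577, ILB_9578, ILB_9579, ILB_9582 and ILB_9583) or saline (UNT, n = 5 mice, UNT_9574, UNT_9575, UNT_9576, UNT_9580 and UNT_9584, called untreated below). The livers were collected 4 hours later, no mouse carried a transgene or deletion, and each liver's RNA was read by an Illumina and by an Ion Torrent instrument. The reads of each platform were aligned by GSNAP, by STAR, or by STAR followed by Bowtie2, so that each of the 10 mice has a count of every gene in 6 tables. The comparisons asked how IL-1β, a cytokine that starts inflammatory signaling, changed the members, and whether the platform or the aligner changed that answer. Mice are named as in the labels, by group and number.

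Alpha-macroglobulins are large plasma glycoproteins, made mainly by hepatocytes, that inhibit proteases by trapping them. A protease that cuts the bait region of the inhibitor exposes a reactive thioester and sets off a change of shape that closes the inhibitor around it, and the complex is then removed from blood by the receptor Lrp1. The product of Pzp is the abundant plasma alpha-macroglobulin of the mouse, Mug1 and Mug2 encode murinoglobulins, which act as single chains, and A2m is the gene whose rat counterpart is a classical acute-phase gene driven through gp130 and STAT3.

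The 4 genes lie on chromosome 6 (NCBIM37, the same build as mm9), and the annotation gives all of them as protein coding. A2m (ENSMUSG00000030111) is at chr6:121586191-121629255 on the plus strand, Mug1 (ENSMUSG00000059908) at chr6:121788559-121839075 on the plus strand, Mug2 (ENSMUSG00000030131) at chr6:121956816-122035985 on the plus strand, and Pzp (ENSMUSG00000030359) at chr6:128433585-128476738 on the minus strand. The transcripts compared have 36 exons in A2m, Pzp and Mug1, and 35 in Mug2. Codons of the thioester site were found in exon 24 of every member. They are shown first because this site holds the reactive thioester described above, with the codons of its amino acids in capitals and the flanking bases in lower case, 5′ to 3′ on the coding strand:
A2m: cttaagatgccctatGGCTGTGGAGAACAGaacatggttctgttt
Pzp: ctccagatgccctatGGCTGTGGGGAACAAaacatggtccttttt
Mug1: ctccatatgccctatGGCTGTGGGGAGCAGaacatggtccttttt
Mug2: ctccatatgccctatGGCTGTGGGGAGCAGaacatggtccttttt
The Mug1 and Mug2 stretches were the same in all 45 bases printed. These stretches lie at chr6:121618105-121618149 in A2m, chr6:128441605-128441649 in Pzp, chr6:121828970-121829014 in Mug1 and chr6:122025204-122025248 in Mug2.

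How far reads can be told apart between members depends on their sequence. Over aligned coding bases, Mug1 and Mug2 were 95.1% identical, whereas the other 5 pairs were between 65.3% and 70.0% identical. The longest run of identical transcript bases was 182 between Mug1 and Mug2, across exons 31 to 33 of Mug1 and 30 to 32 of Mug2. In Mug1 and Mug2 it reads:
Mug1 and Mug2: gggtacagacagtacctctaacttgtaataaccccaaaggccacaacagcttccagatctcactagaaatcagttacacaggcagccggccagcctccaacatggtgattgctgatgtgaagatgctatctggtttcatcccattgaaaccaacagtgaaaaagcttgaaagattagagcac
An exact match over 125 bases, the length of an Illumina read, was shared by only 2.14% of the Mug1 windows with Mug2, and over 25 bases by 40.7%. The Mug1 transcript also matched 85 stretches of at least 30 bases at 90% identity or more that lie outside the annotated genes of chr6:121682950-122198584, with 12035 matched bases in all. Counts of Mug1 and Mug2 are therefore uncertain where the counting could split reads between near-identical copies.

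A2m has less in common with the other members, and its longest identical run was 41 bases with Mug2, against 29 with Mug1 and 23 with Pzp. No window of 50 bases or longer was shared exactly between A2m and any other member. The 101 bases around that run are printed because the A2m count of untreated mice differed between aligners (below). Capitals mark the run of 41 bases in A2m, and in the other members they mark each base that is the same as in A2m:
A2m: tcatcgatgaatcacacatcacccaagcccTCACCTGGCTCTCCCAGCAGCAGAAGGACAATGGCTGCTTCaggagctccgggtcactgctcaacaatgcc
Mug1: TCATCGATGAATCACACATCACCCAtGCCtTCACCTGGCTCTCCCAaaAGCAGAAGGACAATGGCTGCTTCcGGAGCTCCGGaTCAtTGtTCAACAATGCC
Mug2: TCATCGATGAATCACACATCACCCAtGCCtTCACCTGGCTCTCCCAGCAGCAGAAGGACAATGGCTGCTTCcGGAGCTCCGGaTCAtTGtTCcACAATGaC
Pzp: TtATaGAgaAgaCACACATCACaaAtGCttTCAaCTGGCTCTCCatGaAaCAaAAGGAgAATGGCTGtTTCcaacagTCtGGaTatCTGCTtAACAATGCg
The A2m stretch is in exon 26, at chr6:121619580-121619680. Mug1 and Mug2 were each identical to it at 93 of the 101 bases and Pzp at 70.

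The depth behind each value is the total count per library after the authors' re-sampling to a common size within a table, which was 10568530 to 12008799 for Illumina and 12199528 to 16439683 for Ion Torrent. The sources used here do not say whether an Illumina count is a read or a read pair. Untreated mouse UNT_9584 stands apart, since the deviations from the group mean in its Illumina and its Ion Torrent library correlated by 0.197 to 0.249 across genes, against 0.591 to 0.746 for the other 9 mice, so results are also given without it. The study also reports lower platform correlations for this sample and a shifted distribution of its Ion Torrent read lengths. It proposes that read length could be a source of technical variability, which was not tested here. The 6 hepatocyte markers, which check the liver label, were all tested, with a summed level of 86154 to 106617 CPM (counts relative to a TMM-scaled library total) in untreated and 65637 to 79812 CPM in treated mice (Illumina, GSNAP). They did not move together, since 2 were called higher and 2 lower there, and 2 higher and 3 lower with GSNAP on Ion Torrent. The 7 neutrophil markers, of which 4 were tested and all 4 were called higher, summed over the tested genes to 2.51 to 5.23 CPM in untreated and 46.8 to 97.9 CPM in treated mice. The rest missed the low-count filter, and whether those tested passed it only through the treated mice is not given here. Over all genes tested, 23.7% were called higher and 23.9% lower with GSNAP on Illumina, and 22.5% and 23.9% on Ion Torrent. In bulk liver, fewer cells of a type and less RNA per cell cannot be told apart, and the part these marker shifts have in the results below was not tested.

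All 4 members were called in all 6 tables, A2m and Pzp higher and Mug1 and Mug2 lower after IL-1β. A call is an adjusted p below 0.05 in edgeR's quasi-likelihood test of 5 against 5 mice with Benjamini-Hochberg adjustment over the 15578 genes, and fold changes are relative to TMM-scaled library sizes. Of all genes tested, GSNAP gave 47.5% called in the Illumina data, STAR 45.7% and STAR + Bowtie2 47.4%. The Ion Torrent shares were 46.4%, 42.1% and 46.7%. A call alone therefore does not set a member apart from other genes. The share of all genes whose groups did not overlap is not given here, so a lack of overlap does not set a member apart either.

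A2m was close to absent from untreated livers and rose strongly. In the Illumina data aligned with GSNAP, its counts were 5, 4, 0, 4 and 3 in untreated mice UNT_9574, UNT_9575, UNT_9576, UNT_9580 and UNT_9584. In treated mice ILB_9577, ILB_9578, ILB_9579, ILB_9582 and ILB_9583 they were 1876, 3478, 2102, 1706 and 2589. Every treated library was therefore far above every untreated one, and mouse ILB_9578 was the highest. The fitted log2 fold change was 9.64 ± 0.33 (SE, edgeR adjusted p = 6.59e-11). Because that value leans on 16 untreated counts in all, the ratio of summed counts per library total is also given, which was 760-fold with a 95% counting interval of 468 to 1330 (exact, counting error only). The approximate 95% interval from the SE was 506 to 1255. It is narrower than the counting interval although it should also hold the spread between mice, so the SE of A2m may be too small. The single untreated count of 0, in mouse UNT_9576, allows up to 3 counts, or 0.256 CPM.

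The A2m counts of treated mice were alike over the tables, whereas those of untreated mice were not, given here as a description because each table was re-sampled separately. Over treated mice, A2m took 207 to 209 CPM of the summed counts in the Illumina tables and 158 to 176 CPM in the Ion Torrent tables. With STAR, the untreated counts lay between 1 and 3 on Illumina, beside 1634 to 3235 in treated mice, and between 0 and 7 on Ion Torrent, beside 1617 to 3173. With STAR + Bowtie2, the untreated Ion Torrent counts lay between 0 and 8, beside 1837 to 3746 in treated mice. These 3 tables and the Illumina GSNAP table share untreated counts below 10. The other 2 tables do not. Illumina reads with STAR + Bowtie2 gave the untreated mice 110, 89, 93, 98 and 79 counts of A2m, beside 1792 to 3571 in treated mice. Ion Torrent reads with GSNAP gave them 34, 30, 29, 40 and 22 counts, beside 1896 to 3792.

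The fitted size of the A2m rise followed these untreated counts. Its log2 fold change in the Illumina tables was 9.64 ± 0.33 (SE) for GSNAP, 10.07 ± 0.30 for STAR and 4.82 ± 0.20 for STAR + Bowtie2. For Ion Torrent it was, in that order, 6.52 ± 0.23, 10.15 ± 0.38 and 9.89 ± 0.36. Its rank from the highest among the 15578 genes moved with it, at 3, 2 and 46 on Illumina and 18, 2 and 3 on Ion Torrent. The edgeR adjusted p was 3.03e-10 or smaller in each table, and treated and untreated libraries did not overlap in any of them. With STAR, the 95% counting interval of the summed ratio was 580 to 2079 on Illumina and 604 to 2319 on Ion Torrent. The fold intervals from the SE were narrower, at 716 to 1604 and 680 to 1896, so these SEs may also be too small. Adding Bowtie2 to STAR in the Illumina data raised the A2m count of an untreated library by 76 to 108 and that of a treated library by 133 to 336, which is 6.62% to 10.4% of the treated STAR count. The total of a treated library was 1.09 times that with STAR. The treated A2m ratio of 1.07 to 1.10 was close to this. The untreated A2m ratio was 26.3 to 93, also at a total of 1.09 times. On Ion Torrent, the same step added 0 to 2 counts in untreated mice, and GSNAP gave 21 to 38 counts more than STAR. Whether reads of the near-identical stretches printed above, or of other copies, make up the added counts was not tested.

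**Figure D1:**
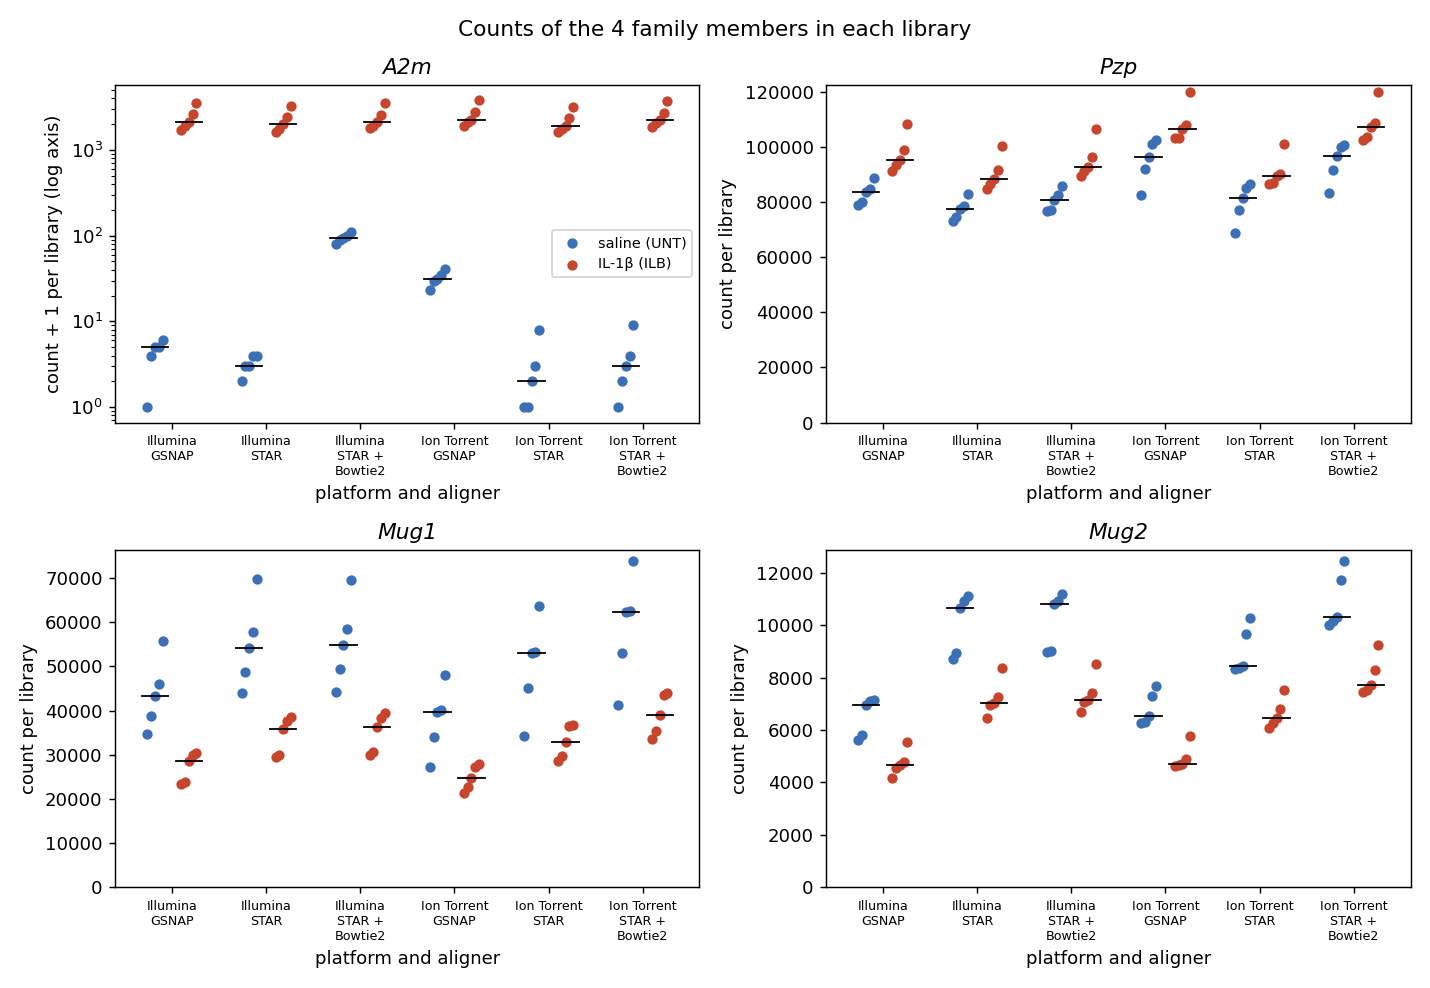
Counts of A2m, Pzp, Mug1 and Mug2 in every library (points) for the 6 combinations of platform and aligner on the x axis, with saline in blue, IL-1β in red and a black line at the group median; the y axis is the count, as count + 1 on a log axis for A2m and linear from 0 for the others. Untreated A2m lies at 0 to 8 counts in 4 combinations, at 79 to 110 with Illumina and STAR + Bowtie2 and at 22 to 40 with Ion Torrent and GSNAP.

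Among the treated mice, the response of A2m varied by a factor of up to 2.04 between the highest and the lowest mouse. The order of the 5 treated mice, from ILB_9578 through ILB_9583, ILB_9579 and ILB_9577 to ILB_9582, was the same in all 6 tables, so both platforms ranked them alike. The order of the untreated mice differed between the 2 tables with the most untreated counts, where UNT_9574 was the highest with STAR + Bowtie2 on Illumina and UNT_9580 with GSNAP on Ion Torrent. The other 4 tables had at most 8 counts in an untreated mouse.

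Pzp, the main plasma alpha-macroglobulin gene, had the highest level of the family in both groups and rose by a fold of 1.26 to 1.32 after IL-1β over the 6 tables. In the Illumina data with GSNAP, the untreated mice UNT_9574, UNT_9575, UNT_9576, UNT_9580 and UNT_9584 had 88857, 84874, 79136, 83599 and 79933 counts. The treated mice ILB_9577, ILB_9578, ILB_9579, ILB_9582 and ILB_9583 had 95153, 108243, 91401, 93366 and 98897 counts. The groups did not overlap, with treated mouse ILB_9578 the highest, as it was for A2m. The log2 fold change was 0.40 ± 0.10 (SE, edgeR adjusted p = 0.00539), a fold of 1.32.

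The other tables gave a similar rise of Pzp. With GSNAP on Ion Torrent, the untreated counts were 102460, 96276, 91954, 101230 and 82468, and the treated counts 106589, 119876, 103288, 103254 and 108161, in the same order of mice. The lowest Pzp count in this table was that of mouse UNT_9584, and the groups again did not overlap. The log2 fold change was 0.34 ± 0.098 (SE, adjusted p = 0.00964). Across all 6 tables it was 0.33 to 0.40, with edgeR adjusted p from 0.00469 to 0.0141. Without mouse UNT_9584 it was 0.31 to 0.41 and was called in 6 of 6 tables. Without TMM scaling Pzp was still higher, by 0.23 to 0.24 in the Ion Torrent tables, but was no longer called in those 3 tables (edgeR adjusted p 0.0518 to 0.0746). With STAR on Ion Torrent the Pzp counts of the groups overlapped, since UNT_9574 had 86683 and ILB_9579 had 86562. After TMM scaling they did not.

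The murinoglobulin genes moved the other way. Mug1 counts in the Illumina data with GSNAP were 55719, 45972, 38740, 43321 and 34740 in untreated mice UNT_9574, UNT_9575, UNT_9576, UNT_9580 and UNT_9584. They were 30477, 23784, 23418, 29957 and 28539 in treated mice ILB_9577, ILB_9578, ILB_9579, ILB_9582 and ILB_9583. All treated libraries were below all untreated ones. The log2 fold change was -0.50 ± 0.13 (SE, edgeR adjusted p = 0.00459), a fold of 0.705.

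On Ion Torrent, Mug1 overlapped between the groups, because untreated mouse UNT_9584 had 27167 counts with GSNAP while treated mice ILB_9577 and ILB_9582 had 27870 and 27285. The other 4 untreated mice had 34106 to 48099 counts, all above the treated mice, which had 21347 to 27870. GSNAP gave a log2 fold change of -0.46 ± 0.13, STAR one of -0.44 ± 0.14 and STAR + Bowtie2 one of -0.44 ± 0.14 (SE, edgeR adjusted p 0.00951, 0.0177 and 0.0148). Without mouse UNT_9584, the change of Mug1 was -0.57 to -0.53 over the 6 tables and was called in all of them. With STAR on Ion Torrent it was not called without UNT_9574 or UNT_9580 (edgeR adjusted p 0.0537 and 0.0587). By the rank-sum test of the study's methods, on unscaled counts, Mug1 missed the threshold in the 3 Ion Torrent tables (adjusted p 0.0709 to 0.0740).

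Mug2, which had the lowest level of the 3 genes expressed in untreated liver, also fell. Its counts in the Illumina data with GSNAP were 5821, 6937, 5628, 7142 and 7116 in untreated mice and 5523, 4157, 4549, 4793 and 4662 in treated mice, in the same order of mice as above. The counts did not overlap, but after TMM scaling treated mouse ILB_9577 lay within the untreated range. The log2 fold change was -0.30 ± 0.11 (SE, edgeR adjusted p = 0.0421). With GSNAP on Ion Torrent, the untreated counts were 6288, 7306, 6270, 7659 and 6544 and the treated counts 5782, 4644, 4669, 4896 and 4690. There the log2 fold change was -0.32 ± 0.10 (SE, edgeR adjusted p = 0.0181).

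Over the 6 tables, the change of Mug2 was -0.33 to -0.29 with edgeR adjusted p of 0.0181 to 0.0421. Mug2 was also called in all 6 tables by the rank-sum test (adjusted p 0.0303 to 0.0321) and by edgeR without TMM scaling, where its change was -0.43 to -0.40 (adjusted p 0.00230 to 0.00452). With TMM scaling its call depended on single mice. It was lost without UNT_9580 in each of the 6 tables, where the edgeR adjusted p was then 0.0562 to 0.153, and without UNT_9575 in 5 of them, all but Ion Torrent with GSNAP. Leaving out any treated mouse other than ILB_9577 also lost it with GSNAP and STAR on Illumina and with STAR on Ion Torrent, and leaving out ILB_9579 lost it in both STAR + Bowtie2 tables. Without mouse UNT_9584 Mug2 was called in 4 of 6 tables, not with GSNAP or STAR on Illumina, with a log2 fold change of -0.32 to -0.24. The direction was negative without any 1 mouse and under every alternative run.

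**Figure D2:**
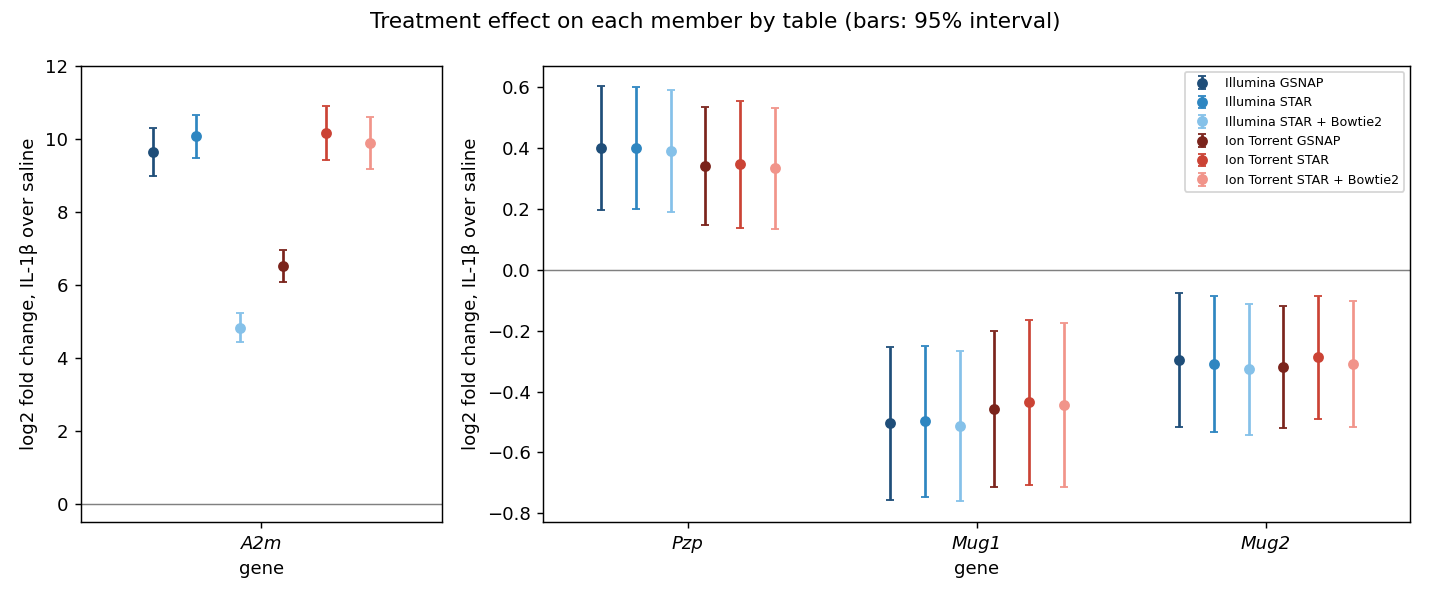
Log2 fold change of each member, IL-1β over saline, from edgeR in the 6 combinations of platform and aligner (colours), with approximate 95% intervals as bars and A2m on its own axis. Pzp lies at 0.33 to 0.40, Mug1 at -0.51 to -0.44 and Mug2 at -0.33 to -0.29 in every combination, whereas A2m ranges from 4.82 to 10.15.

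Levels were compared between the genes as CPM per kb of merged exons, on which scale the order was Pzp, Mug1, Mug2 and then A2m in both groups and all 6 tables, with no overlap between neighbours over the 5 mice of a group. In the Illumina data with GSNAP, the untreated level was 1458 ± 56.3 (SD, n = 5) for Pzp, 728.6 ± 111 for Mug1, 118.6 ± 17.1 for Mug2 and 0.0563 ± 0.0331 for A2m. The treated level was 1922 ± 143 for Pzp, 513.5 ± 60.7 for Mug1, 96.6 ± 8.45 for Mug2 and 46.8 ± 14.5 for A2m. After its rise A2m thus stayed the lowest member, and the mean level of Mug2 was 2.07 times that of A2m in this table and 1.97 to 3.35 times over the 6 tables. The 4 genes together took 1.15% ± 0.106 of the counts of an untreated library and 1.17% ± 0.0622 of a treated one in that table (SD, n = 5 each), a difference smaller than the spread between mice. The mean was also higher in treated mice with GSNAP on Ion Torrent. With STAR and with STAR + Bowtie2 it was lower in treated mice on both platforms, at 1.30% untreated and 1.26% treated with STAR on Illumina.

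**Figure D3:**
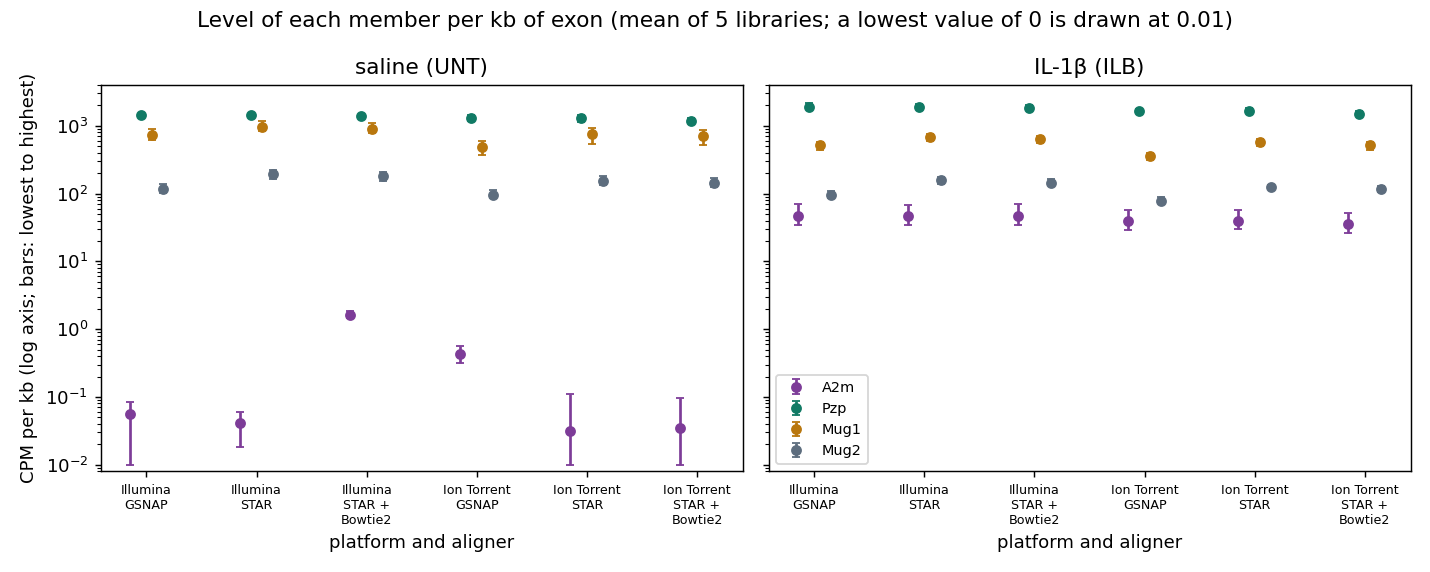
Level of each member in CPM per kb of exon (log axis) in untreated (left) and treated (right) mice for the 6 combinations of platform and aligner; points are means of 5 libraries and bars run from the lowest to the highest library, with a lowest value of 0 drawn at 0.01. The order Pzp, Mug1, Mug2, A2m holds in every column.

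Shares within a library do not depend on how the library was scaled, and they were tested by two-sided exact permutation tests of 5 against 5 mice, whose smallest possible p is 0.00794, with adjustment over 18 such tests. Pzp made up 62.5% ± 2.49 (SD, n = 5) of the family's counts in untreated mice and 73.9% ± 2.48 in treated mice (Illumina, GSNAP). The difference was 11.4 percentage points there and 8.85 to 12.9 points over the 6 tables, with no overlap between the groups (exact permutation p = 0.00794, adjusted 0.0119 in each table). The level of the Pzp share depended on the table, with means of 54.5% to 68.2% in untreated and 67.4% to 77.0% in treated mice. The A2m share was 1.77% ± 0.469 in treated mice and 0.00233% ± 0.00134 in untreated mice (Illumina, GSNAP, with the same p values), and the treated share was 1.59% to 1.81% in the 6 tables. Pzp and A2m thus took more of the family's counts, and the murinoglobulins less, by more than the spread between mice.

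Within the murinoglobulins, no shift was detected. Mug2 made up 14.9% (13.8% to 16.3%, n = 5) of the Mug1 + Mug2 counts in treated and 13.3% ± 2.72 (SD, n = 5) in untreated mice (Illumina, GSNAP, exact permutation p = 0.286, adjusted 0.390). The difference was 1.05 to 1.66 points over the 6 tables, with adjusted p of 0.390 to 0.508. The untreated mice spread more widely than the treated ones, with mouse UNT_9574 at 9.46% and mouse UNT_9584 at 17.001%. These 2 mice were the lowest and the highest of the untreated group in all 6 tables. Without mouse UNT_9584 the difference rose to 2.51, 2.67 and 2.64 points in the Illumina tables (GSNAP, STAR and STAR + Bowtie2) and passed the threshold (exact permutation, adjusted p 0.0440 to 0.0476), and in the Ion Torrent tables it was at most 2.15 points and was not called (adjusted p 0.0804 to 0.0873).

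The Mug2 share of the same mouse was compared between the platforms by a two-sided exact sign-flip permutation test over 10 mice, adjusted over the 3 aligners. With GSNAP it was higher in the Ion Torrent library in 10 of 10 mice, by 2.07 ± 0.410 points (SD), at 16.1% against 14.1% (exact p = 0.00195, the smallest the test can give, adjusted 0.00586). With STAR the difference was -0.35 ± 0.443 points, higher in 2 of 10 mice (exact p = 0.0391, adjusted 0.0586), and with STAR + Bowtie2 it was -0.037 ± 0.397 points, higher in 4 of 10 (exact p = 0.760). The platforms thus differed past the threshold with GSNAP and not with the other aligners, and the difference between aligners was not tested. GSNAP counted both murinoglobulins lower than STAR did in the same library. On Illumina its Mug2 count was 0.642 to 0.664 of the STAR count and its Mug1 count 0.789 to 0.799, while the total per library was 1.06 times that with STAR. On Ion Torrent the Mug2 count was 0.721 to 0.776 of the STAR count and the Mug1 count 0.745 to 0.796, at a total of 1.19 times. The Pzp count with GSNAP was 1.07 to 1.08 and 1.18 to 1.20 of the STAR count, close to the ratio of the totals.

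**Figure D4:**
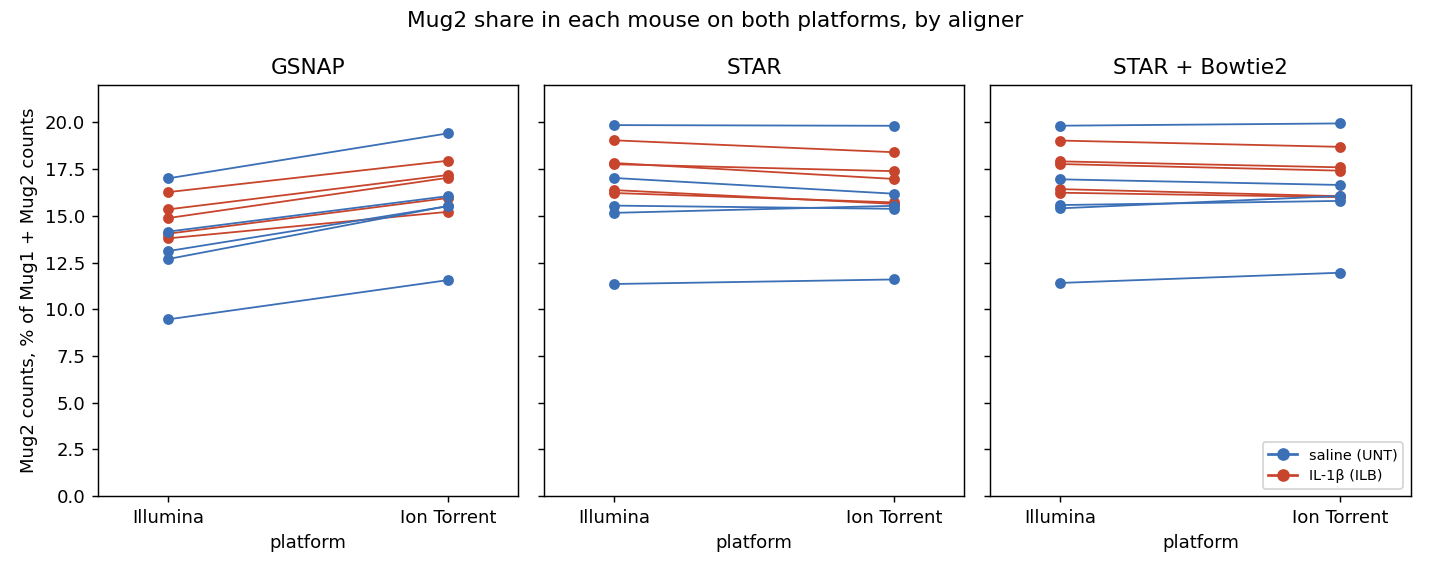
Mug2 counts as a percentage of Mug1 + Mug2 counts (y axis, from 0) in each of the 10 mice on Illumina and Ion Torrent (x axis), with 1 line per mouse, saline in blue and IL-1β in red, for the 3 aligners. All 10 lines rise with GSNAP, by 2.07 points on average, and the lines of STAR and STAR + Bowtie2 are near flat.

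Whether the platforms gave the same treatment effect was tested by the platform-by-treatment term, the Ion Torrent minus the Illumina log2 fold change, which edgeR estimated for each aligner from 20 libraries, blocking on the mouse. Of all genes tested, GSNAP gave 0.0642% called, STAR 0.00642% and STAR + Bowtie2 0.0770%. A2m was among the called genes with GSNAP and STAR + Bowtie2, in opposite directions. With GSNAP its term was -3.13 ± 0.27 (SE, adjusted p = 3.88e-07), a smaller rise in the Ion Torrent data, and with STAR + Bowtie2 it was 5.05 ± 0.25 (SE, adjusted p = 8.23e-11), a larger rise in the Ion Torrent data. With STAR it was 0.10 ± 0.52 (SE, edgeR adjusted p = 1), with an approximate 95% interval of -0.92 to 1.13. The STAR term rested on 11 untreated counts on Illumina and 10 on Ion Torrent. Leaving out 1 mouse at a time gave -0.29 to 1.42, past the upper end of that interval, which may therefore be too narrow. The term of A2m was as large without mouse UNT_9584, at -3.18 with GSNAP and 5.12 with STAR + Bowtie2. Both terms rest on few untreated counts, 16 in all with GSNAP on Illumina and 14 with STAR + Bowtie2 on Ion Torrent. Their SEs and p values may therefore be too small. Without the mouse block the edgeR adjusted p was 0.0115 with GSNAP and 4.14e-06 with STAR + Bowtie2.

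For Pzp, Mug1 and Mug2, no platform-by-treatment term was called with any aligner. The Pzp term was -0.061 ± 0.061, -0.037 ± 0.060 and -0.063 ± 0.059 (SE) with GSNAP, STAR and STAR + Bowtie2. Over the 9 terms of the 3 genes, the estimates were -0.063 to 0.090 and the approximate 95% intervals lay within -0.18 and 0.22. A term that misses the threshold does not show that the platforms gave the same effect.

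Further members of the thioester protein superfamily, the receptor and its chaperone were read from a list of 11 genes, of which 8 were listed by symbol and 7 were tested. In the Illumina data with GSNAP, where 23.7% of all genes were called higher and 23.9% lower, 3 were called higher and 2 lower. On Ion Torrent, where the shares were 22.5% and 23.9%, 3 were called higher and 1 lower. The median log2 fold change of the 7 genes was 0.33 and 0.11 in these tables, against 0 for all genes tested. The highest of the 7 were C3, C4a and C4b, while the complement gene Hc was among the lower ones. C3, the central complement component, had 75093 to 103478 counts in untreated and 156931 to 204426 in treated mice (Illumina, GSNAP), a log2 fold change of 1.12 ± 0.13 (SE, edgeR adjusted p = 4.92e-06). C4b and C4a, near-identical copies whose counts can be split between them, changed by 0.69 ± 0.11 and 0.94 ± 0.28 (SE, adjusted p 0.000169 and 0.0126). Hc, which encodes C5, a relative without a thioester, changed by -0.33 ± 0.11 (adjusted p = 0.0207), but missed the threshold in the Ion Torrent data at -0.26 ± 0.11 (adjusted p = 0.0591).

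Lrp1, the clearance receptor, was called in neither GSNAP table. It had 5204 to 10553 counts in untreated and 8048 to 10686 in treated mice, with a log2 fold change of 0.33 ± 0.15 that was not called (Illumina, GSNAP, edgeR adjusted p = 0.0883), and of -0.030 ± 0.13 in the Ion Torrent data. Lrpap1, the chaperone of this receptor, was lower, at 314 to 392 counts in treated and 441 to 545 in untreated mice (log2 fold change -0.32 ± 0.091, adjusted p = 0.00862). Its log2 fold change was -0.49 ± 0.11 in the Ion Torrent data (SE, edgeR adjusted p = 0.00156). BC048546 had 107 to 181 counts in treated and 159 to 318 in untreated mice and was not called (-0.33 ± 0.20, adjusted p = 0.181). With GSNAP on Ion Torrent its log2 fold change had the other sign and was not called either (0.11 ± 0.18, SE, edgeR adjusted p = 0.662). Cd109, a membrane-bound relative, had 0 counts in all 10 libraries of both GSNAP tables. Cpamd8, A2ml1 and Mug-ps1 were not matched by symbol and were not analysed here.

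Other plasma protease inhibitors were followed in a list of 29 genes, all tested, in which 11 were called higher and 9 lower in the Illumina data with GSNAP and 10 higher and 6 lower in the Ion Torrent data, beside shares over all genes of 23.7% higher and 23.9% lower, and of 22.5% and 23.9%. The median log2 fold change of the list was -0.053 and -0.036, against 0 for all genes tested. Of the 14 called in all 6 tables, the highest was Timp1, an inhibitor of metalloproteinases, at 7.12 ± 0.36 (Illumina, GSNAP, SE, edgeR adjusted p = 4.33e-09). Timp1 had 0 to 1 counts in untreated and 63 to 111 in treated mice, and at most 4 in an untreated mouse of any table. It thus passed the filter through the treated group, and its fitted fold depends on those few counts, at 5.75 to 6.05 on Ion Torrent. The lowest were Serpind1, heparin cofactor II, at -1.25 ± 0.13, and Hrg, histidine-rich glycoprotein, at -0.57 ± 0.093 (adjusted p 3.22e-06 and 0.000154).

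Genes of the gp130 and STAT3 pathway, which drives A2m in the rat, were mostly higher. Of 12 genes in the list, 11 were tested, and 9 were called higher and 1 lower in both GSNAP tables, with median log2 fold changes of 0.88 (Illumina) and 0.85 (Ion Torrent) against 0 for all genes tested. The shares over all genes were 23.7% higher and 23.9% lower (Illumina), and 22.5% and 23.9% (Ion Torrent). With STAR and with STAR + Bowtie2 on Illumina, 8 genes of the list were called higher, 1 lower and 2 were not called. The highest of those called in all 6 tables were Socs3, the feedback inhibitor of the pathway, at 2.29 ± 0.39, and Cebpd, a transcription factor of acute-phase genes, at 2.11 ± 0.29 (Illumina, GSNAP, SE, edgeR adjusted p 0.000199 and 3.39e-05). Jak1, a kinase bound to gp130, changed by 0.51 ± 0.092 (adjusted p = 0.000369). The gene called lower was Lifr, the receptor of leukemia inhibitory factor, at -1.48 ± 0.16 (SE, edgeR adjusted p = 2.69e-06). Tyk2, a further kinase, was the tested gene not called, at 0.14 ± 0.12 (adjusted p = 0.339), and is named after its values were seen. Il6 itself had 0 to 1 counts in untreated and 1 to 2 in treated mice and was not tested.

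For each member, the 3 genes with the most similar pattern over the 10 mice were taken from 8160 genes averaging 100 counts or more, by the root mean square difference of log2 levels centred on each gene's mean (Illumina, GSNAP). For A2m they were Saa2, Saa3 and Saa1, which encode acute-phase serum amyloid A proteins, at differences of 0.59, 0.67 and 0.81, against a median of 4.06 over all genes compared. In the Ion Torrent data with GSNAP, the same 3 genes differed from A2m by 1.24, 1.66 and 0.70, so Saa1 was the nearest of them there. Saa1 and Saa2 are near-identical copies whose counts can be split between them. For Pzp they were Phactr4, Tpd52l2 and R3hdm1 at 0.051 to 0.056 (median of all genes 0.33). For Mug1 they were Stat6, Fam134a and Vav2 at 0.10 to 0.12 (median 0.41), and for Mug2 they were Agxt2, Pigr and Osbpl1a at 0.075 to 0.094 (median 0.35). For the genes named with Pzp, Mug1 and Mug2, the Ion Torrent differences were 0.11 to 0.13, 0.21 to 0.26 and 0.069 to 0.15, larger than on Illumina for 8 of the 9 genes. The Illumina log2 fold changes of the named genes were 6.95 to 9.50 for the 3 like A2m, 0.35 to 0.40 for those like Pzp, -0.61 to -0.47 for those like Mug1 and -0.33 to -0.28 for those like Mug2. Group means were not removed before matching, so similar fold changes follow from the choice and show no likeness between mice within a group. A small constant was added before the logarithm, on which the differences from A2m depend at its low untreated levels.

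The 250 bases before to 50 after the gene start were given for Pzp, Mug1 and Mug2 (RefSeq, GRCm38.p6) and searched on both strands for letters of factors of the acute-phase response. The STAT letters TTCNNNGAA are in 8.30% of the 32851 promoters searched, the C/EBP letters TTGCNNAA in 10.8%, the NF-kB letters GGGANTTTC in 1.11% and the HNF1 letters GTTAATNAT in 0.801%. The 1 match in the 3 members was to the HNF1 letters in Pzp, from position -202 to -194 relative to the start. The upstream stretches of Mug1 and Mug2 aligned over 206 bases and were identical at 196 of them. A match is a description of the letters and does not show binding.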

How the data were processed

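Liver RNA of 10 mice was measured on both platforms, giving 20 libraries. The count values deposited by the authors are whole numbers per gene. The authors aligned reads to mm9 with GSNAP, STAR 2.5.1b or STAR followed by Bowtie2 2.2.9, removed rRNA and mitochondrial reads, re-sampled all libraries within a table down to the smallest and counted genes of Ensembl models with PORT. Re-sampling makes totals near equal and levels comparable within a table only. All 60 count columns were used.

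Genes with at least 5 counts in at least 5 libraries of any table were tested (15578). A2m had at least 5 counts in only 5 or 6 libraries in 4 tables, the 5 treated ones among them, so by those tables alone it would pass through the group where it is high. With STAR + Bowtie2 on Illumina and with GSNAP on Ion Torrent it had at least 5 counts in all 10 libraries. edgeR 4.0.16 (quasi-likelihood, TMM, in R 4.3.3) was the main test, in place of the rank-sum test of the study's methods, because the values are counts. Without TMM the median log2 fold change, over genes averaging 10 counts or more, was -0.13 to -0.089, and with it -0.013 to 0.0095. The mouse number in the titles pairs the libraries of the platforms, which come from the same RNA, and the deviations of all 10 mice correlated between platforms, by 0.197 at the lowest. The SE of an edgeR estimate was calculated back from its test, as the absolute log2 fold change divided by the square root of the F statistic. Approximate 95% intervals are normal ones from that SE. Levels are TMM-scaled CPM. Alternatives were limma-voom 3.58.1, DESeq2 1.42.0, the rank-sum test, no TMM, other filters, no mouse block, other scales of shares, and leaving out each mouse. Fits and exact tests were tested on simulated data. No pair of libraries within a group agreed within sampling noise.

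Gene models are those of GENCODE vM1 on NCBIM37. Transcripts were compared with BLAST+ and Biopython. The members and gene lists were chosen with earlier results of these data known. Named genes are the 4 members, all genes of the thioester and receptor list, the 2 highest and 2 lowest log2 fold changes of the other 2 lists among genes called in all 6 tables, and the 3 genes nearest in pattern to each member. 1 gene that this rule names is not reported here. Of 6 marker lists, those of hepatocytes and neutrophils are in the text. In the Illumina GSNAP table, 1 of 7 Kupffer cell and macrophage markers was called higher and 4 lower (summed 135 to 229 CPM untreated, 71.2 to 166 CPM treated), 1 of 5 endothelial markers higher and 2 lower (106 to 158, 66.8 to 123 CPM), 2 of 6 stellate cell and fibroblast markers lower (261 to 341, 174 to 292 CPM) and 2 of 3 tested lymphocyte markers lower (0.753 to 2.46, 0.475 to 0.842 CPM). The shares over all genes tested there were 23.7% higher and 23.9% lower. No marker had 0 counts in all libraries. Reads were not realigned.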

Additional observations from a re-analysis of the deposited data

Results flagged for a closer look

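The effect of IL-1β on A2m differed between the platforms with 2 of the 3 aligners, by -3.13 on the log2 scale (Ion Torrent minus Illumina) with GSNAP and by 5.05 with STAR + Bowtie2 (edgeR platform-by-treatment term, adjusted p 3.88e-07 and 8.23e-11). Both differences go with the untreated counts, which were 22 to 40 in the Ion Torrent data with GSNAP against 0 to 5 in the Illumina data, and 0 to 8 against 79 to 110 with STAR + Bowtie2. The source of the added untreated counts was not tested.

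In the untreated Illumina libraries with GSNAP, the A2m share of the family was 0% in mouse UNT_9576 and 0.00246% to 0.00332% in the other 4 mice, a gap that marks UNT_9576 as far from the rest of its group. This was the only such value among the 84 groups of 5 libraries checked, where about 1 in 20 groups would be marked by chance, and it rests on 0 counts against 3 to 5.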

How the results depend on the processing

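A2m was called higher in all 6 tables under every alternative that could be fitted, although the minimum of 10 counts in every library left it out of 4 tables. Other calls moved as follows. Without TMM, Pzp was 0.23, 0.23 and 0.24 (log2) in the Ion Torrent tables with GSNAP, STAR and STAR + Bowtie2 and was not called. By the rank-sum test, Mug1, as the log2 ratio of mean counts, was -0.61, -0.60 and -0.59 there and was not called. With no filter on low counts, Mug2 was -0.27 in the Illumina GSNAP table and -0.26 in the Ion Torrent STAR table and was not called. The causes were not tested.

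Without each mouse in turn, Mug2 changed by -0.37 to -0.24, -0.37 to -0.25 and -0.37 to -0.28 in the Illumina tables (GSNAP, STAR, STAR + Bowtie2) and by -0.37 to -0.25, -0.33 to -0.20 and -0.36 to -0.25 in the Ion Torrent tables, and Mug1 by -0.54 to -0.35 in the Ion Torrent STAR table, each with some calls lost. The Mug2 share difference between treatments was 0.63 to 2.51, 0.55 to 2.67 and 0.54 to 2.64 points in the Illumina tables, and that between platforms -0.43 to -0.30 points with STAR (called without mouse UNT_9574 or UNT_9576) and -0.11 to 0.00077 with STAR + Bowtie2. Platform-by-treatment terms that were not called changed sign, at -0.29 to 1.42 for A2m with STAR, -0.045 to 0.042, -0.028 to 0.099 and -0.045 to 0.077 for Mug2, and -0.069 to 0.015, -0.084 to 0.013 and -0.095 to 0.015 for Pzp (GSNAP, STAR, STAR + Bowtie2).

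Without the mouse as a replicate block, the A2m terms were -3.14 with GSNAP (adjusted p = 0.0115), 0.091 with STAR and 5.04 with STAR + Bowtie2 (edgeR adjusted p = 4.14e-06), and the block changed no call of a platform-by-treatment term. Ignoring the pairing, the Mug2 share difference between platforms of 2.07 points with GSNAP was not called (permutation p adjusted to 0.115). With 10 to 16 untreated counts in all in 4 tables, counting error in untreated mice limits the A2m fold.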
